A study of Mus musculus with 46 samples.

Results

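Bone matrix sialoproteins and osteocalcins were described in single cells of the mouse cochlea. The 9 genes, of 29871 with a value, were taken by symbol: Ibsp, the osteocalcin genes Bglap, Bglap2 and Bglap3, Dmp1, Spp1, Mepe, Ifitm5 and Phex. All 46 samples of the study were used, each of them 1 cell. The cells came from the cochlea of C57BL/6 mice at postnatal day 10, of the genotype Dio2creERt2:Ai6, described as heterozygous for the inducible Cre allele. Dio2 encodes the type 2 deiodinase, which turns thyroxine into the active thyroid hormone T3, and the study asked which cochlear cell types express it. Ai6 is a reporter that turns on a green fluorescent protein once Cre has acted in a cell, and keeps it on in descendants, so a picked cell need not have expressed Dio2 when it was collected. Every cell carried the reporter, and there was no control group. Cells were released with papain, picked one by one for fluorescence with a suction pipette, and made into full-length cDNA libraries (SMART-Seq v4). No dose or time of tamoxifen is given in the sources used here. Since the labels name no animals, the 46 cells were treated as 1 sample, and all values below are descriptions without a test.

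Bone is made by osteoblasts, which secrete a collagen matrix, add acidic phosphorylated proteins and osteocalcin to it, and let it mineralise. Bone sialoprotein (Ibsp), dentin matrix protein (Dmp1), osteopontin (Spp1) and matrix extracellular phosphoglycoprotein (Mepe) belong to 1 family of small integrin-binding glycoproteins, whose genes lie side by side. Bone sialoprotein favours the first crystals of hydroxyapatite, osteopontin slows crystal growth, and Dmp1 and Mepe are best known from osteocytes, the osteoblast descendants buried in the matrix. Osteocalcin is a small calcium-binding protein that vitamin K-dependent carboxylation prepares for mineral. Ifitm5 is an osteoblast membrane protein, and Phex is a membrane peptidase whose loss causes a phosphate-wasting bone disease. The cochlea lies inside the bony otic capsule, whose cells are candidates for such a program beside the fibrocytes of the lateral wall.

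Ibsp, Dmp1, Spp1 and Mepe lie within 243 kb of chromosome 5 (RefSeq, GRCm38.p6). Ibsp (NCBI Gene 15891) is at chr5:104299287-104311472, Dmp1 (13406) at chr5:104197575-104214102, Spp1 (20750) at chr5:104435111-104441053 and Mepe (94111) at chr5:104325329-104338611, all on the plus strand. The 3 osteocalcin genes lie within 15.9 kb of chromosome 3, with Bglap3 (12095) at chr3:88368616-88372741, Bglap2 (12097) at chr3:88377736-88378701 and Bglap (12096) at chr3:88383495-88384466. Ifitm5 (73835) is at chr7:140948958-140950243 and Phex (18675) at chrX:157162075-157415286, both on the minus strand.

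The 3 osteocalcin genes are near-identical copies, which sets how far their reads can be told apart. Each has 288 coding bases in GENCODE M21 (GRCm38). Bglap2 differs from Bglap at 4 of them (98.6% identity, longest identical run 241 bases) and from Bglap3 at 9 (96.9%, longest identical run 81 bases), while Bglap3 differs from Bglap at 13 (95.5%). Coding bases 154 to 273 are shown because 8 of the 13 positions that differ lie there. Capitals mark the positions at which the 3 copies are not all the same.
Bglap2: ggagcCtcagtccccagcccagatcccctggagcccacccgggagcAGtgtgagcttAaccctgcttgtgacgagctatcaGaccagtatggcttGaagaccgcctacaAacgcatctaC
Bglap3: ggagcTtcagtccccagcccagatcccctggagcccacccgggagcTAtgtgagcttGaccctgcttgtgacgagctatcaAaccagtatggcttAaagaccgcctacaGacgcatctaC
Bglap: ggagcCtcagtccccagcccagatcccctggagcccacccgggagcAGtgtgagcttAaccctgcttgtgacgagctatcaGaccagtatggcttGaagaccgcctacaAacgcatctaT
Most of the bases that tell the copies apart separate Bglap3 from the other two, so a read over this stretch can often be given to Bglap3 but seldom to Bglap2 over Bglap. The handling of reads that match several copies is not given in the sources used here. Therefore the copies were summed, and the sum is called osteocalcin below.

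The stretch before the start of transcription is shown for 4 members, to set genes with different patterns over the cells side by side. RefSeq promoter entries (GRCm38.p6) were matched for 8 of the 9 members, Bglap2 being the exception. The 250 bases before the annotated start are given for Ibsp (chr5:104299037-104299286, plus strand), Bglap (chr3:88384467-88384716, minus strand), the downstream start of Dmp1 (chr5:104202367-104202616, plus strand) and the upstream start of Spp1 (chr5:104434861-104435110, plus strand). Capitals mark TGTGGT or its other strand ACCACA, the core hexamer bound by RUNX factors.
Ibsp: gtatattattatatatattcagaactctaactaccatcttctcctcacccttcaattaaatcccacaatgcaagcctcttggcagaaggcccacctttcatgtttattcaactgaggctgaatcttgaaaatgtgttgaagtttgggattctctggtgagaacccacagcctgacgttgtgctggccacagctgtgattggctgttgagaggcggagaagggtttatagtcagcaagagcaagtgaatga
Bglap: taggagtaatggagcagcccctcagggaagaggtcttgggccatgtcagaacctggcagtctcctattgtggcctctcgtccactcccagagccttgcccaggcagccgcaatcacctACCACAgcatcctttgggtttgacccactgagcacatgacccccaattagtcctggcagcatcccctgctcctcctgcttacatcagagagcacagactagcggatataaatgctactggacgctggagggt
Dmp1: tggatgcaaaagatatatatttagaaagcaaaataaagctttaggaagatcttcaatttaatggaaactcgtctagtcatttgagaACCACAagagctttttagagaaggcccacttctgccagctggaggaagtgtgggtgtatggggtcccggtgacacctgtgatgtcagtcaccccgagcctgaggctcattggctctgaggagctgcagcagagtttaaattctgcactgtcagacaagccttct
Spp1: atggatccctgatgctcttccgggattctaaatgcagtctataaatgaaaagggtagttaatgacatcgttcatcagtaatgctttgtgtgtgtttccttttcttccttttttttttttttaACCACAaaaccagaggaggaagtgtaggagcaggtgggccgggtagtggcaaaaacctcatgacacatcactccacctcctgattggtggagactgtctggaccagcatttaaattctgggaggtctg
The hexamer was found once in the windows of Bglap, Dmp1 and Spp1, with its first base 132, 164 and 128 bases before the start, and not in that of Ibsp. Dmp1 and Spp1 each have another annotated start, whose window held none, and the starts shown were chosen because they hold it. The windows of Ifitm5 and Phex and the 3 of Bglap3 held none, and that of Mepe held 2. On either strand, 14.05% of 32841 promoter windows of this length held it, so a match was common. The DLX hexamer TAATTA, held by 4.84% of all windows, was in none of these 4, but in the other Spp1 window, in 1 of Bglap3 and in that of Mepe. A match is a description of letters and not of binding.

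Reads in listed genes numbered 2522853 to 10350249 per cell (median 4789573), and between 3351 and 7143 genes at 1 CPM (count per 1000000 reads) or more. Reads of abundant genes were found at a low, even level in nearly all cells, and a cell counted as above background for a gene only at 5% of its mean over the 46 cells or more, and at 10 CPM or more. Ibsp at 1000 CPM or more in 12 cells (26.1% of 46, exact 95% interval 14.3 to 41.1%) defined the Ibsp-high cells. Dmp1 at 1000 CPM or more with Ibsp under 1000 CPM defined 11 further cells (23.9%, 12.6 to 38.8%), called Dmp1 cells below, and 23 other cells remained. Such intervals cover counting error only, over cells picked by hand, and reads without molecular identifiers are not independent molecules. The Ibsp-high cells are exactly cells 1 to 12 as numbered in the labels, and the labels do not say what the numbers stand for, so the class cannot be told apart from the numbering. The range of reads overlapped between the classes, at 3110332 to 10350249 in Dmp1 cells, 2522853 to 5438602 in Ibsp-high cells and 2921064 to 10172279 in other cells.

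**Figure D1:**
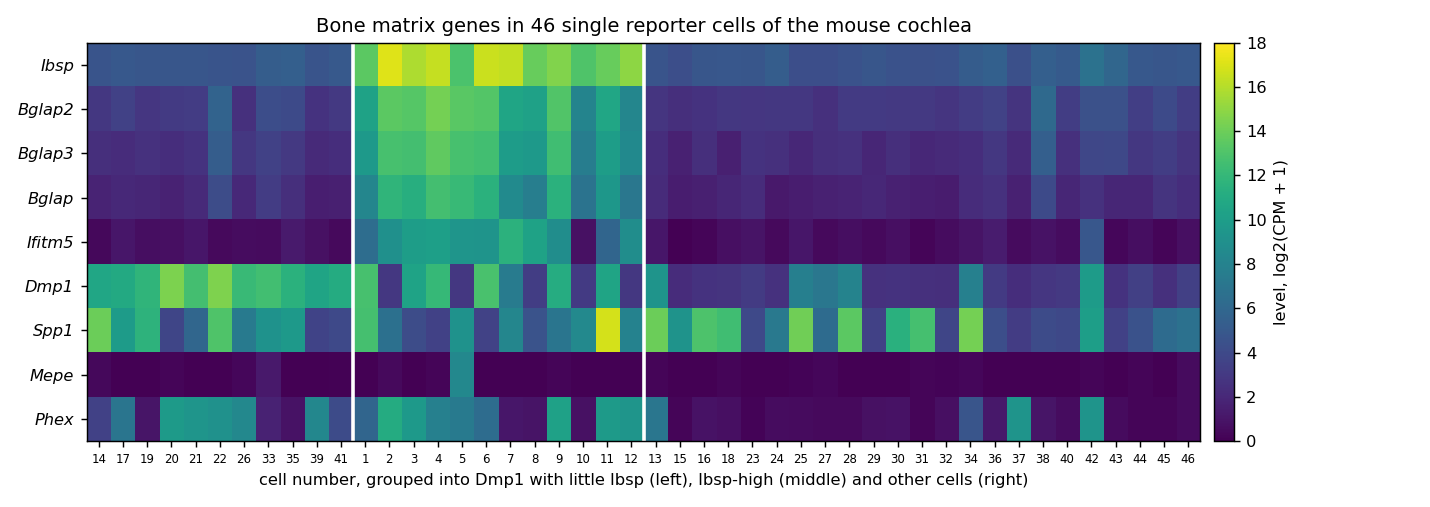
Level of the 9 genes (rows) as log2(CPM + 1) in each of the 46 cells (columns, numbered as in the labels), with white lines between Dmp1 cells, Ibsp-high cells and other cells. Ibsp, which chose the Ibsp-high cells, and the 3 osteocalcin genes form 1 block over cells 1 to 12. In contrast, Dmp1, Spp1 and Phex are bright in cells of all 3 classes.

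Ibsp itself ran from 7618 CPM in cell 5 over a median of 28272 CPM to 145198 CPM in cell 2 among the 12 Ibsp-high cells. The threshold fell in an empty range, since the highest value outside the class was 107 CPM in cell 42 and the next 59.3 CPM in cell 43. The split into Ibsp-high and other cells would be the same for any threshold between 107 CPM in cell 42 and 7618 CPM in cell 5. Below it, the 34 cells had a median of 27.6 CPM, which is 0.217% of the mean over the 46 cells, and no cell had fewer than 91 Ibsp reads. In Ibsp-high cells the 9 genes together took 0.949% to 16.96% of the total (median 6.23%). Their share was 0.182% to 3.23% in Dmp1 cells (median 0.664%) and 0.00518% to 1.95% in other cells (median 0.0248%).

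Osteocalcin was above background in all 12 Ibsp-high cells and in 0 of the other 34 cells. It ran from 596 to 38064 CPM in the Ibsp-high cells, with a median of 10427 CPM, against 8.20 to 128 CPM in the 34 remaining cells. The groups did not overlap, and the share of all genes with such a split is not given here. Inside the Ibsp-high class the cells fell to either side of a gap. Cells 2, 3, 4, 5, 6 and 9 had between 17463 and 38064 CPM, whereas cells 1, 7, 8, 10, 11 and 12 had no more than 3391 CPM. The median lies in that gap, and it took values from 3391 to 17463 CPM when 1 cell was left out.

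Osteocalcin did not keep a fixed proportion to Ibsp. It was 294% of the Ibsp level in cell 5, which had the lowest Ibsp of the class, but 2.55% in cell 12, which had 32061 CPM of Ibsp. The median over the 12 cells was 20.6%, and the ratio of the sums was 25.6%. Cell 7 held 84807 CPM of Ibsp with 1542 CPM of Bglap2, while cell 4, at 87846 CPM of Ibsp, held 19225 CPM of Bglap2. Cells close in Ibsp level thus differed many fold in osteocalcin. Outside the class, the ratio of the sums was 72.6%, and 53.9% without cells 22 and 38, which were singled out after their values were seen. These cells had 110 and 128 CPM of osteocalcin, just under the background limit of 163 CPM.

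The split of reads between the copies had the same order in every Ibsp-high cell but 1. Of 708007 osteocalcin reads, 50.9% were counted to Bglap2, 32.9% to Bglap3 and 16.2% to Bglap. In the 34 remaining cells the shares were 51.2%, 32.3% and 16.6% of 4496 reads. The low reads outside the class thus had nearly the same make-up as the reads inside it. Cell 12 stood apart, with 45.2% of its 4088 reads on Bglap3 against 30.9% to 35.4% in the other 11 Ibsp-high cells. In that cell Bglap3 exceeded Bglap2 (369 and 308 CPM), while Bglap2 was the higher of the pair in the other 11. The share of Bglap ran from 8.77% in cell 8 to 21.6% in cell 11.

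**Figure D2:**
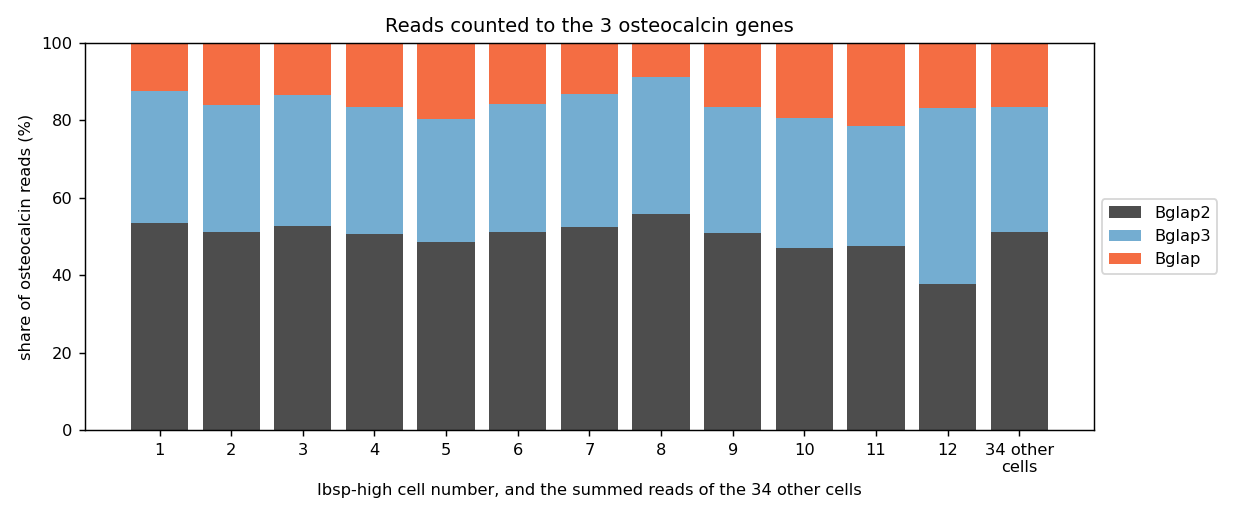
Share of osteocalcin reads counted to Bglap2, Bglap3 and Bglap (vertical axis, percent) in each Ibsp-high cell and in the summed reads of the 34 remaining cells (horizontal axis). Bglap2 holds about the same share in the bars except that of cell 12, where Bglap3 takes 45.2%.

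Ifitm5 marked almost the same cells. It was above its limit in 11 of 12 Ibsp-high cells, 0 of 11 Dmp1 cells and 1 of 23 other cells. Its level in Ibsp-high cells ran from 0.734 CPM in cell 10 to 3078 CPM in cell 7, with a median of 592 CPM, while its median was 0.612 CPM in Dmp1 cells and 0.581 CPM in other cells. The exception outside the class was cell 42 with 27.95 CPM. Cell 10, with Ifitm5 at background, also had the lowest osteocalcin of the class (596 CPM) and 8534 CPM of Ibsp. Cell 7, with the highest Ifitm5, was among the 6 cells with less osteocalcin, so the genes did not follow 1 order among these cells.

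Mepe was near 0 almost everywhere. It had 0 reads in 27 of the 46 cells, and only cell 5 was above its limit, at 345 CPM. Cell 5 was also the Ibsp-high cell with the lowest Ibsp, and it had 6.6 CPM of Dmp1, 173 CPM of Phex and 22411 CPM of osteocalcin. Dspp, which encodes dentin sialophosphoprotein and neighbours Dmp1 on chromosome 5, had 0 reads in every cell. Sost and Fgf23, made by osteocytes, were also at 0 in every cell, but some other listed osteocyte markers were not. Pdpn, Irx5, Fbln7 and Capg were above their limits in 8, 9, 4 and 7 of 11 Dmp1 cells. In Ibsp-high cells the counts were 5, 10, 0 and 4 of 12, and in other cells 10, 14, 8 and 15 of 23.

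Dmp1 was found in a different and wider set of cells than Ibsp. It was above its limit of 111 CPM in 7 of 12 Ibsp-high cells, besides all 11 Dmp1 cells, which it defined, and 6 of 23 other cells. In Dmp1 cells it ran from 1447 CPM in cell 39 to 23208 CPM in cell 22, with a median of 3474 CPM. In Ibsp-high cells it ran from 6.44 to 7194 CPM with a median of 798 CPM, and in other cells it had a median of 6.36 CPM. The 5 Ibsp-high cells without it (2, 5, 8, 10 and 12) had no more than 8.7 CPM, so the class held cells with and without Dmp1, and its median was 181 to 1416 CPM when 1 cell was left out. The cell just outside the Dmp1 threshold was cell 42 with 939 CPM, and cell 13 followed with 630 CPM. The highest Dmp1 levels of the series, 23208 CPM in cell 22 and 21980 CPM in cell 20, were both found in cells with no Ibsp above background. Cell 22 also had C1qb at 148 CPM, C1qc at 99.5 CPM and Lyz2 at 367 CPM, all markers of macrophages. Its summed level of 8 macrophage markers was 615 CPM, and their part in its Dmp1 and Spp1 levels was not tested.

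**Figure D3:**
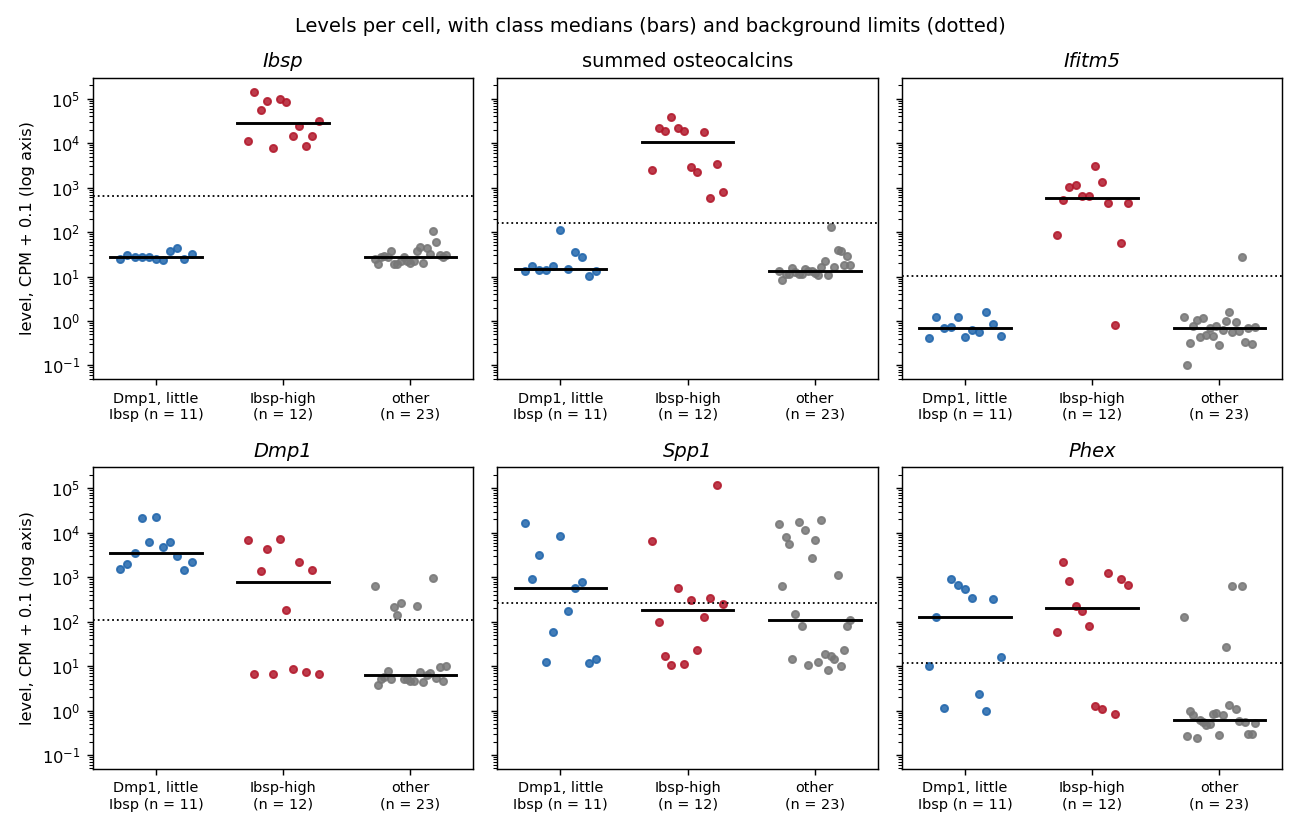
Level of Ibsp, summed osteocalcins, Ifitm5, Dmp1, Spp1 and Phex in each cell (points, CPM + 0.1 on a log axis) for Dmp1 cells, Ibsp-high cells and other cells, with bars at the class medians and dotted lines at the background limits. Osteocalcin separates the Ibsp-high cells from all others, as does Ibsp, which chose them. Spp1 is spread over 3 or more orders of magnitude in each class.

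Spp1 varied widely in every class. It was above its limit of 269 CPM in 6 of 11 Dmp1 cells, 5 of 12 Ibsp-high cells and 10 of 23 other cells. Its median was 574 CPM in Dmp1 cells, 187 CPM in Ibsp-high cells and 106 CPM in other cells, with wide and overlapping ranges. Cell 11 had 119788 CPM, the highest value of the gene, and cell 1 had 6675 CPM; the other 10 Ibsp-high cells had no more than 584 CPM. Outside the Ibsp-high class, cells 34, 25, 14, 13 and 28 had 19167, 17547, 16231, 15582 and 11566 CPM. Spp1 is also a product of macrophages. The 4 cells with the most macrophage marker reads (43 to 46) had between 10.0 and 106 CPM of it, under its limit, whereas cell 22, with 3 macrophage markers above their limits, had 8378 CPM. The part of such reads in the Spp1 level was not tested.

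Phex was above its limit of 11.7 CPM in 7 of 11 Dmp1 cells, 9 of 12 Ibsp-high cells and 4 of 23 other cells. It had a median of 127 CPM in Dmp1 cells, 198 CPM in Ibsp-high cells and 0.522 CPM in other cells. It was thus above its limit in most Ibsp-high cells and most Dmp1 cells. Of the 10 other cells with Spp1 above its limit, 3 had Phex. Of the 17 cells outside the Ibsp-high class with Dmp1 above its limit, 10 also had Phex, against 1 of the 17 such cells without Dmp1. That exception was cell 37, at 626 CPM of Phex and 4.2 CPM of Dmp1. Over these 34 cells the Pearson r of log2(CPM + 1) was 0.65 (Spearman's rho 0.61), and r was 0.56 without cells 20 and 22, which lay farthest from the median of Dmp1. The cells fall into a block with Dmp1 and a block without it, on which that r rests. Inside the Ibsp-high class, 6 of the 7 cells with Dmp1 and 3 of the 5 cells without it had Phex. There r was 0.25, rho was −0.09, and r was 0.61 without cells 2 and 12, so the sign depended on the measure. The highest Phex level, 2186 CPM, was in cell 2, which had the most Ibsp and 6.4 CPM of Dmp1.

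**Figure D4:**
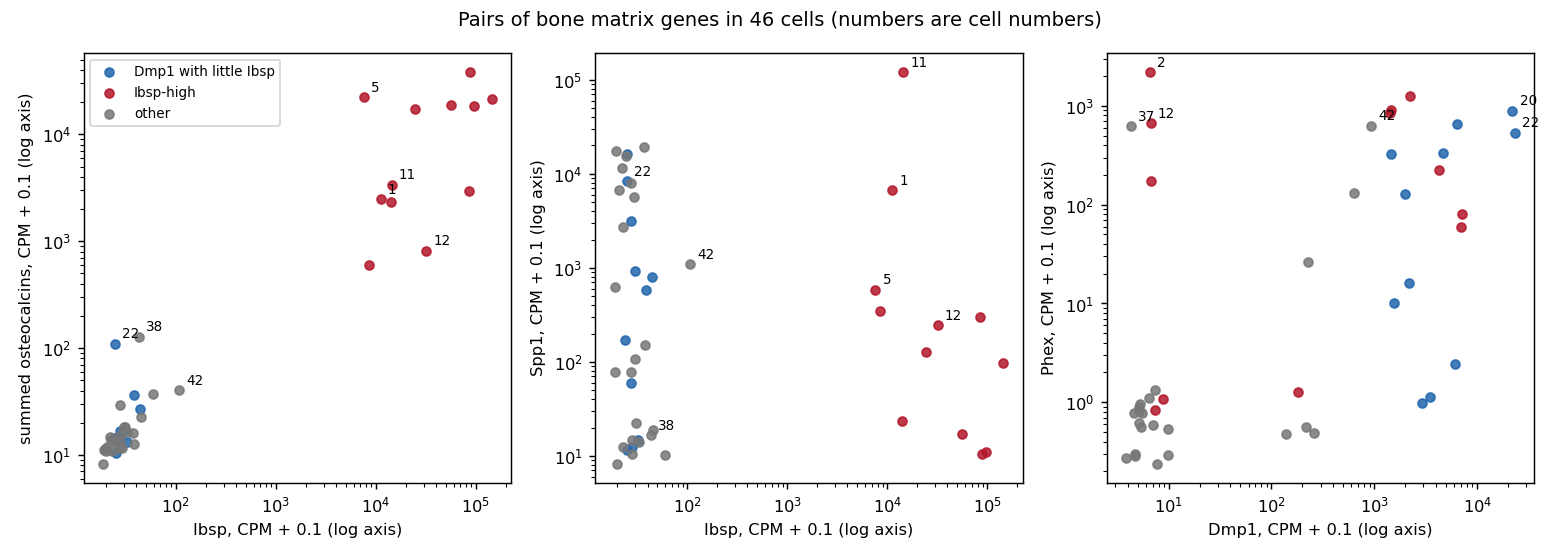
Pairs of genes in 46 cells, with CPM + 0.1 on log axes and a point per cell in the colour of its class: osteocalcin against Ibsp, Spp1 against Ibsp, and Phex against Dmp1. Among Ibsp-high cells, cell 5 has the highest osteocalcin for its Ibsp; cell 11 has the highest Spp1, and cell 37 has Phex without Dmp1.

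Levels can be set against each other only per length. In Ibsp-high cells the median was 22139 CPM per kb of transcript for osteocalcin, 13671 for Ibsp, 774 for Ifitm5, 289 for Dmp1, 124 for Spp1 and 31.7 for Phex. The spread of the members overlapped. With 1 cell left out, an alternative chosen after seeing the data, the osteocalcin median ran from 7200 to 37077 CPM per kb and that of Ibsp from 11839 to 15504, and Ibsp was then the higher of the pair in 6 of 12 cases. Ibsp, which chose the cells, was the highest of them in 7 of 12 cells, osteocalcin in 4 and Spp1 in 1. In Dmp1 cells Dmp1, which chose the cells, was highest in 9 of 11 and Spp1 in 2, and the median of Dmp1 was 1257 CPM per kb.

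The spread inside the Ibsp-high class differed by member. The SD of log2(CPM + 1) over the 12 cells was 1.51 for Ibsp, which chose the cells, 2.05 for osteocalcin and 2.87 for Ifitm5. That of Mepe, 2.41, rests on cell 5. The SD was 3.81 for Phex, 3.94 for Spp1 and 4.35 for Dmp1, the genes that were present in some cells of the class and at background in others. Counted over Ibsp, osteocalcin, Ifitm5, Dmp1, Spp1, Phex and Mepe, an Ibsp-high cell had 3 to 6 above background. A Dmp1 cell had 2 (9 cells) or 3 (2 cells), and 11 of the 23 other cells had 0. Cell 42 was the other cell with 4, at 939 CPM of Dmp1, 1096 CPM of Spp1, 633 CPM of Phex and 27.95 CPM of Ifitm5.

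Over all 46 cells, the 4 members with a Pearson r of 0.8 or more with Ibsp on log2(CPM + 1) were Bglap2, Bglap3 and Bglap (0.96 each) and Ifitm5 (0.94), where 0.226% of 7964 genes reached that r. The 3 copies are near-identical, so they may share reads and are not taken as separate evidence. These r rest on the block of 12 Ibsp-high cells against the 34 remaining ones. The r was 0.43 for Phex, 0.12 for Dmp1 and −0.11 for Spp1. Inside the 12 cells alone, r with Ibsp was 0.49 for osteocalcin (rho 0.43) and 0.57 for Ifitm5 (rho 0.38), and r was 0.66 and 0.73 without cells 2 and 5, which lay farthest from the median of Ibsp. There it was −0.55 for Spp1 (rho −0.68, and −0.59 without cells 2 and 5). Among these 12 cells, those with more Ibsp tended to have less Spp1. In 7 of them Spp1 was under its limit of 269 CPM, so much of that order rests on values not counted as above background. The cells share 1 sample, their depth and the total to which the values were scaled.

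Leaving the members out, the genes most like Ibsp over the 46 cells, among 7965 genes, were Dlx5 (r = 0.95), Panx3 (0.92), Lpar3 (0.90), Sgms2 (0.89) and Alpl (0.88). For osteocalcin, again without the members, they were Panx3 (0.93), Dlx5 (0.90), Ppfia2 (0.89), Lpar3 (0.89) and Alpl (0.88). These r, too, rest on the block of Ibsp-high cells against the remaining ones. Inside the Ibsp-high class, r with Ibsp was 0.06 for Dlx5, 0.26 for Panx3, 0.56 for Lpar3, 0.61 for Sgms2 and 0.15 for Alpl. With osteocalcin it was 0.56 for Panx3, −0.31 for Dlx5, 0.52 for Ppfia2, 0.49 for Lpar3 and 0.43 for Alpl. Dlx5 is a homeobox factor of osteoblasts, Panx3 a channel protein of bone and cartilage, and Alpl the alkaline phosphatase that releases phosphate for mineral. No ranked gene was nearly as close to Dmp1 or Spp1. Outside the members, the highest for Dmp1 were Pdlim7 (0.59), Stoml2 (0.57), Lama2 (0.54), Hip1 (0.53) and Ets1 (0.53), beside 0.53 for the member Phex. The highest for Spp1 were Limch1 (0.54), Inmt (0.53), Pfdn2 (0.53), Six2 (0.52) and Sox9 (0.51).

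Classes were set against each other by size alone. A gene was called higher or lower where the mean of log2(CPM + 1) differed by 2 or more and the gene was at 1 CPM or more in 75% of the higher class. Ibsp-high cells differed from the 34 remaining cells at 6 of the 8 members that entered, all higher in Ibsp-high cells. Of 11447 genes, 3.43% were called higher and 1.21% lower. The 6 are not separate results, since Ibsp chose the cells and the 3 osteocalcin genes are near-identical copies. The differences were 9.98 for Ibsp, which chose the cells, 8.37 for osteocalcin, 7.59 for Ifitm5 and 3.65 for Phex. Dmp1, at 0.94, and Spp1, at −0.44, were not called, and Mepe did not enter. In Dmp1 cells against Ibsp-high cells, 1 of 8 members was called higher (background 2.01%) and 5 were called lower (background 3.58%). The higher one was Dmp1, at 4.38, which chose the cells. The lower ones were Ibsp, which chose both classes, the 3 osteocalcin genes (−8.16 for Bglap2), again not separate results, and Ifitm5 (−7.65). Spp1, at 0.62, and Phex, at −0.98, were not called. In Dmp1 cells against other cells, Dmp1 (7.87), which chose the cells, and Phex (3.94) were called higher, where the background was 1.41%. None of the 8 members was called lower (background 0.515%). There Ibsp differed by −0.03, osteocalcin by 0.21 and Spp1 by 0.27.

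Most of the listed factors of the osteoblast lineage that could be compared were higher in the cells with Ibsp. Of 8 listed factors that entered, 5 were called higher and 0 lower in Ibsp-high cells against the 34 remaining cells (background 3.43% and 1.21%). The median difference was 6.17 against 0.09 over all genes. The 5 factors included Dlx5 (8.13), Sp7 (7.29), Mef2c (6.47) and Runx2 (6.07). Vdr (4.49), Dlx6 (2.94) and Atf4 (1.52) were not called, and Dlx3 and Msx2 did not enter. Sp7 and Runx2 are the factors without which no osteoblasts form in mice. Runx2, whose hexamer is marked in the windows above, had a median of 0.524 CPM in Dmp1 cells, 330 CPM in Ibsp-high cells and 0.309 CPM in other cells. It was above its limit in 2 of 11 Dmp1 cells, 10 of 12 Ibsp-high cells and 2 of 23 other cells. Sp7 was above its limit in 5 of 11 Dmp1 cells, 11 of 12 Ibsp-high cells and 0 of 23 other cells. The Dmp1 cells with Sp7 were cell 35 with 726 CPM, cell 20 with 704 CPM, cell 22 with 139 CPM, cell 21 with 103 CPM and cell 19 with 18.98 CPM. Of these, cell 20 also had Runx2 (292 CPM) and Mef2c (573 CPM) above their limits, cell 21 had Runx2 at 59.4 CPM, and cell 19 had Mef2c at 80.0 CPM.

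**Figure D5:**
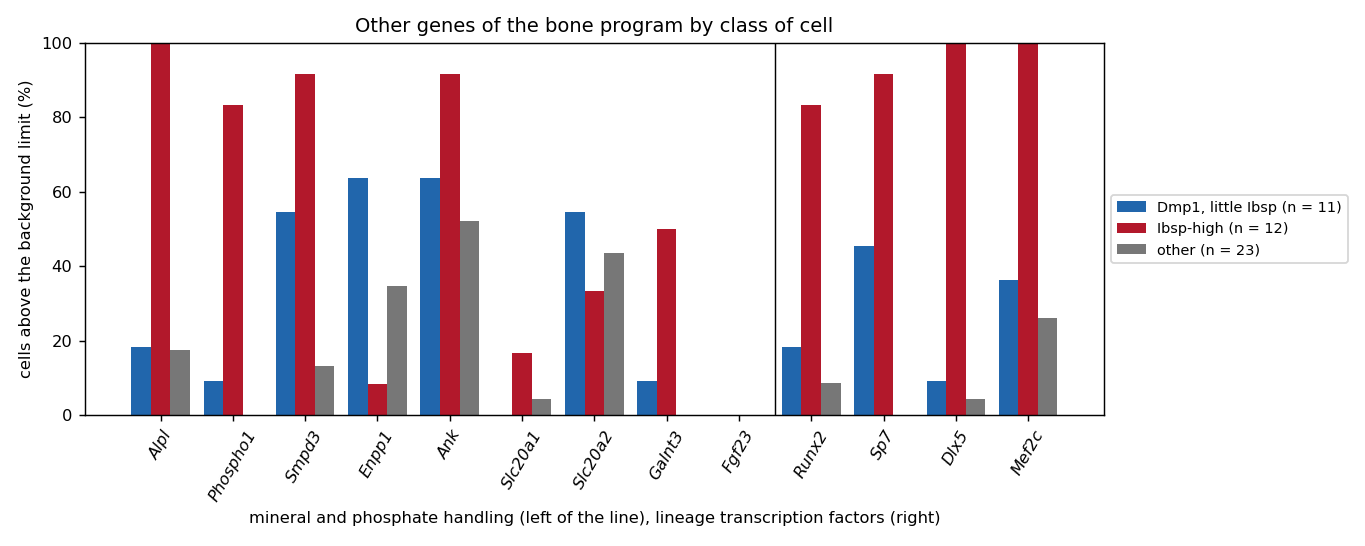
Share of cells above the background limit (vertical axis, percent) for listed genes of mineral and phosphate handling and for the 4 lineage transcription factors named here (horizontal axis), in Dmp1 cells, Ibsp-high cells and other cells. Alpl, Dlx5 and Mef2c reach all 12 Ibsp-high cells, while Enpp1 is above its limit in 7 of 11 Dmp1 cells and 1 of 12 Ibsp-high cells.

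Some genes of mineral and phosphate handling were also higher in the cells with Ibsp. Of 7 such genes that entered, 4 were called higher and 0 lower in Ibsp-high cells (background 3.43% and 1.21%), with a median of 3.24. They were Alpl (8.30), Smpd3 (7.12), a sphingomyelinase needed for bone mineral, Phospho1 (4.49), a phosphatase of matrix vesicles, and Ank (2.99), which exports pyrophosphate. The others were not called, with Galnt3 at 3.24, Slc20a2 at −1.58 and Enpp1 at −2.07. In Dmp1 cells against Ibsp-high cells, 0 of the 7 were called higher and 3 lower (background 2.01% and 3.58%). The 3 were Alpl (−8.39), Smpd3 (−5.31) and Phospho1 (−4.08). Smpd3 was nevertheless above its limit in 6 of 11 Dmp1 cells, 11 of 12 Ibsp-high cells and 3 of 23 other cells. Enpp1, which makes the mineral inhibitor pyrophosphate, had a median of 85.5 CPM in Dmp1 cells, 0.397 CPM in Ibsp-high cells and 0.807 CPM in other cells. In Dmp1 cells against Ibsp-high cells it differed by 3.60, but missed the share of cells at 1 CPM and was not called.

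Of 10 genes that modify the members' proteins, 2 were called higher and 0 lower in Ibsp-high cells against the remaining cells (background 3.43% and 1.21%). The median was −0.07. Fam20c (3.63), the secretory kinase that phosphorylates this family, had a median of 94.7 CPM in Dmp1 cells, 307 CPM in Ibsp-high cells and 1.16 CPM in other cells. Bmp1 (3.46), a proteinase that cleaves Dmp1, was the other. Ggcx, the carboxylase that acts on osteocalcin, was above its limit in 7 of 11 Dmp1 cells, 4 of 12 Ibsp-high cells and 11 of 23 other cells, so it was not tied to the cells with osteocalcin. Of 5 receptors of the matrix proteins that entered, 0 were called in either direction (median −1.20). Itga8, at −3.85, met the size of the rule but not its share of cells at 1 CPM. It was above its limit in 7 of 11 Dmp1 cells, 1 of 12 Ibsp-high cells and 12 of 23 other cells. Itgb5, an integrin subunit, was above its limit in 7 of 11 Dmp1 cells, 8 of 12 Ibsp-high cells and 22 of 23 other cells. Gprc6a and Gpr158, receptors reported for osteocalcin, had 0 reads in every cell.

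The label of bone matrix genes was checked against markers of cell types. All 8 osteoblast markers were called higher in Ibsp-high cells (median 6.68), where 3.43% of 11447 genes were called higher. Alpl, Sp7, Runx2 and Dlx5 were already counted in the lists above and are not separate results. Each Ibsp-high cell had 5 to 8 of the 8 markers above their limits. A Dmp1 cell had 1 to 5 of them, and another cell had 0 to 4. Of 4 osteocyte markers that entered, 0 were called in Ibsp-high cells against the remaining cells, and 0 in Dmp1 cells against Ibsp-high cells (median 2.11). Of the cochlear fibrocyte markers, 4 of 6 were called lower and 0 higher in Ibsp-high cells against the remaining cells (background 1.21% and 3.43%). Among the 4 were Otor (−4.47) and Gjb6 (−4.36). The other members of that list, Coch (1.18) and Car3 (0.16), were not called, and they were above their limits in 10 and 9 of the 12 Ibsp-high cells. In turn, 3 of these 6 were called higher and 0 lower in Dmp1 cells against Ibsp-high cells (background 2.01% and 3.58%). They were Otor (3.51), Gjb6 (2.66) and Gjb2 (2.63), above their limits in only 5, 3 and 4 of 11 Dmp1 cells. Medians in Dmp1 and Ibsp-high cells were 2.24 and 1.72 CPM for Gjb6, and 2.24 and 2.01 CPM for Gjb2. These calls thus rest on some of the Dmp1 cells. Of the chondrocyte markers, 3 of 6 were called higher in the same comparison, Sox9 (5.02), Col9a1 (4.34) and Lect1 (2.60), while Col2a1 differed by −0.20. Lect1 was above its limit in 5 of 11 Dmp1 cells, and its medians were 6.17 CPM there and 5.39 CPM in Ibsp-high cells. Col2a1 was called higher in Ibsp-high cells against the remaining cells (2.26), where Lect1, Col9a1 and Sox9 were called lower. Of the fibroblast markers, 2 of 5 were called higher in Dmp1 cells against Ibsp-high cells (background 2.01%), Col3a1 (5.63) and Dcn (2.23). At least 3 of the 6 fibrocyte markers were above their limits in 6 of 11 Dmp1 cells, 0 of 12 Ibsp-high cells and 14 of 23 other cells. The summed macrophage markers ran from 4.40 to 615 CPM in Dmp1 cells and from 4.11 to 70.6 CPM in Ibsp-high cells, against up to 61034 CPM in other cells. Of the 7 osteoclast markers, Mmp9, Ocstamp and Calcr were at 0 in every cell. Ctsk was above its limit in 6 of 11 Dmp1 cells, 8 of 12 Ibsp-high cells and 13 of 23 other cells. Acp5 was above its limit in cell 5 alone (80.8 CPM), and Dcstamp (107 CPM) and Atp6v0d2 (115 CPM) in cell 42 alone; their part in the bone genes of these cells was not tested.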

How the data were processed

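Expression was measured in 46 single cells of 1 labelled group. The authors deposited CPM for 29871 genes, a unit taken from the file headers. The submitters' processing notes name STAR 2.7.3a, bcl2fastq 2 and the builds GRCm38 and mm10. Which program counted reads, with what annotation and strand setting, is not given in the sources used here. Dividing by the smallest step of each cell turned 100% of the nonzero values into whole reads, within 0.01 read. No count test was run, since there is 1 sample. Differences are of mean log2(CPM + 1), a pseudocount of 1 CPM that understates differences of low genes. Genes at 1 CPM or more in 5 cells entered the size rule, and genes with a mean of 10 CPM or more and 1 CPM in 10 cells entered the ranking by Pearson r. The size rule was tested on simulated data.

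The members, gene lists and markers were chosen with earlier results of these data known. The named genes are all 9 members, genes of the lists, and the 5 genes with the highest r with Ibsp, osteocalcin, Dmp1 and Spp1 (members, Gm, Rik, LOC, mitochondrial and ribosomal protein genes left out). The comparison of Dmp1 cells with other cells was added after seeing the data. The result of 1 listed gene is not reported here, though it stays in the counts of its list. Shares have exact Clopper-Pearson intervals. Alternatives were other thresholds, pseudocounts, filters, background limits, Spearman's rho, thinning to 1 depth and leaving out cells. Python 3.11.15, numpy 2.4.6, pandas 2.3.3, scipy 1.17.1 and matplotlib 3.10.9 were used.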

Additional observations from a re-analysis of the deposited data

How the results depend on the processing

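The 12 Ibsp-high cells stayed the same number at every threshold tried. The number of Dmp1 cells with little Ibsp was 17 at a Dmp1 threshold of 100 CPM and 4 at 5000 CPM, against 11 at 1000 CPM. With a pseudocount of 10 CPM, 155 genes were called higher and 80 lower in Ibsp-high cells against the remaining cells (393 and 139 with 1 CPM), and 116 higher and 141 lower in Dmp1 cells against Ibsp-high cells (230 and 410), with the same calls for the members. The SD of Mepe in Ibsp-high cells was then 1.48, against 2.41. By Spearman's rho over 46 cells, the relation with Ibsp was 0.80 for Bglap3, 0.80 for Bglap, 0.70 for Ifitm5, 0.23 for Dmp1 and −0.025 for Mepe. The other 237 alternatives kept counts and SDs within 1.5 times, r within 0.1 and medians within 1 SD over cells, among them a total without the 9 members, which was chosen after seeing the data. With 1 Ibsp-high cell left out, the medians ran from 24483 to 32061 CPM for Ibsp, 1610 to 8880 for Bglap2, 1048 to 5662 for Bglap3, 733 to 2499 for Bglap, 533 to 650.5 for Ifitm5, 181 to 1416 for Dmp1, 128 to 246 for Spp1 and 173 to 224 for Phex. Cells of 1 sample do not show how animals vary, and the picked cells do not give shares of the tissue. No paired analysis was possible because there is 1 group.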

Other observations

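Inside the 12 Ibsp-high cells, the compared listed genes with the highest Pearson r with osteocalcin on log2(CPM + 1) were Car3 (0.87), a carbonic anhydrase also listed as a fibrocyte marker, and Pdgfra (0.75). Ifitm5 had an r of 0.85 with Phospho1 in the same cells. These values were chosen after they were seen, from 38 listed genes compared with 4 of the members or their sum (Ibsp, osteocalcin, Ifitm5 and Phex), and rest on 12 cells of 1 sample. Car3 was 6693 CPM in cell 5, with the highest osteocalcin relative to Ibsp of these 12 cells. It was 103 CPM in cell 12, with the lowest, which is under the Car3 limit of 593 CPM. Car3 did not follow that ratio throughout. Cells 2 and 8, with osteocalcin at 14.9% and 16.3% of Ibsp, had 17764 and 84.5 CPM of Car3.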
